A study of Mus musculus with 23 samples.

Results

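The regions described here are the widest RNA polymerase II peaks at the ends of protein-coding genes in mouse CD4+ naive T cells. A peak was taken when it was at least 1500 bp wide and its midpoint lay within 3000 bp of either end of a protein-coding gene on chromosomes 1 to 19 or X. The members were thus chosen by the peak's width and position. This rule found 372 peaks, 5.58% of the 6661 RNA polymerase II peaks at gene ends. There were 10890 RNA polymerase II peaks on those chromosomes and 10924 in the whole list. Both measures are therefore given as description and not as a result.

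The study profiled chromatin by CUT&Tag, in which an antibody directs a transposase to cut and tag DNA near its target. Its RNA polymerase II samples came from CD4+ naive T cells labelled as taken from spleen and pLN, 2 of DDX55 KO mice and 2 of WT mice, all with no treatment. DDX55 is a DEAD-box RNA helicase, and how the deletion was made and in which cells is not given in the labels. The labels of all 4 samples name 1 merged peak list, which holds positions only, so no KO against WT value, no spread between replicates and no depth can be given. Peaks of H3K9me3, R-loops and DDX55, used for overlaps, came from merged lists of the same kind, each naming 2 KO and 2 WT samples, except the R-loop list. That list was named by 2 KO and 2 WT samples without RNase H and by 2 KO and 2 WT samples with RNase H, which degrades the RNA of DNA-RNA hybrids.

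RNA polymerase II transcribes protein-coding genes. It often pauses shortly after the start, is released by the kinase P-TEFb, and slows again past the polyadenylation site, where the transcript is cut and transcription ends. Polymerase is therefore commonly found both over promoters and downstream of 3′ ends. Naive T cells are quiescent lymphocytes that keep many activation genes ready for rapid induction.

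Promoter sequences of genes at some of the widest peaks show the sequence that lies under them. Each runs 5′ to 3′ on the strand of its gene, from 120 bases before to 30 bases after the start, in RefSeq's GRCm38.p6. Capitals mark matches, on either strand, to any of 8 motifs searched. These were TATAAA for the TATA box, CCAAT for the CCAAT box, GGGCGG for the GC box, CCGGAAG for ETS factors, TGACGTCA for the cyclic AMP response element (CRE), TGANTCA for AP-1, CACGTG for the E box, and the Kaiso-type palindrome. Syf2 is shown for CCGGAAG, Junb and H3c10 for TATAAA and CCAAT, Wnk1 for GGGCGG, H2ac13 for CCAAT alone, and Hexim1 for a stretch with no match.
Syf2, chr4:134930860-134931009, plus strand: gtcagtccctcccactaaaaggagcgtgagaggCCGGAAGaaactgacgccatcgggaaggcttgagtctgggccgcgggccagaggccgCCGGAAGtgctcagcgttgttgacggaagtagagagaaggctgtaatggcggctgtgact
Junb, chr8:84978719-84978868, minus strand: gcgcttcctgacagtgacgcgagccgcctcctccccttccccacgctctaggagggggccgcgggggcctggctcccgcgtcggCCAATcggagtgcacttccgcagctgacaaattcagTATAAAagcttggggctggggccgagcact
Hexim1, chr11:103116205-103116354, plus strand: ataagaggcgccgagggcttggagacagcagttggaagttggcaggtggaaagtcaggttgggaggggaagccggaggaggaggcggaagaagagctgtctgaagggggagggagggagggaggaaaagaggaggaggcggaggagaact
Wnk1, chr6:120038626-120038775, minus strand: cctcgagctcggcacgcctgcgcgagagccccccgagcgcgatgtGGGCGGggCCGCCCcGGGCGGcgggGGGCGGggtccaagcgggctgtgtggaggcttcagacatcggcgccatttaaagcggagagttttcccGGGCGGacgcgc
H2ac13, chr13:21716292-21716441, plus strand: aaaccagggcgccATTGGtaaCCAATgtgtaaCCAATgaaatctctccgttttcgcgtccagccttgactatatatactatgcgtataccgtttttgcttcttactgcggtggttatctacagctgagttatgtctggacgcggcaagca
H3c10, chr13:21717508-21717657, plus strand: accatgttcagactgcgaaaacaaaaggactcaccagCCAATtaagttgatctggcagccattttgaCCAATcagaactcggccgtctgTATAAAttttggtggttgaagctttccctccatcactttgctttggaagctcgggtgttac
Their peaks ranged from 3131 bp at Syf2 to 2397 bp at H2ac13 and H3c10, which share 1 peak. A match is a run of letters and not a known binding site.

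Most peaks of the set lay close to the width limit. Their median width was 1690 bp (quartiles 1583 and 1938 bp), against 693 bp (470 and 955 bp) for the 6289 narrower gene-end peaks. Of the 372, 67 exceeded 2000 bp, 12 exceeded 2500 bp and 4 reached 3000 bp. Just inside the limit, 4 peaks at Ablim1, Nrip1, Susd6 and the Psmb9 and Tap1 pair were 1502 bp wide. Just outside it were the peaks at Arrdc1 (1499 bp) and at Atm and Npat (1498 bp). The set covered 664809 bp, or 12.6% of the 5262346 bp under gene-end peaks. Of all 497 peaks of at least 1500 bp, 74.8% were at gene ends, against 60.5% of the 10393 narrower peaks. The other 125 were away from gene ends, 71 on a protein-coding gene and 54 on none. The Ddx55 gene itself had a 686 bp peak (chromosome 5, 124552927 to 124553612, GRCm38) and was not in the set. Because the list is merged, this peak does not check the genotype labels.

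**Figure D1:**
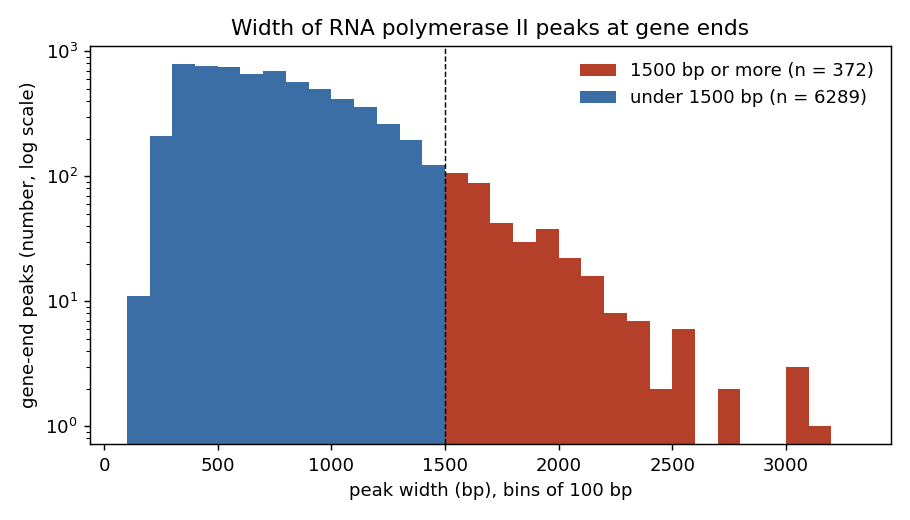
Number of RNA polymerase II gene-end peaks (vertical axis, log scale) by width in bins of 100 bp (horizontal axis, bp). Red bars are the 372 peaks of at least 1500 bp and blue bars the 6289 narrower peaks; numbers fall steadily across the dashed line at 1500 bp, with no gap there.

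The 16 widest peaks, of which the last 2 were of equal width, are described here by gene. The widest, 3131 bp (chromosome 4, 134928116 to 134931246), covered the 5′ end of Syf2 (gene 68592), which encodes a splicing factor, and began 746 bp past the 3′ end of Rsrp1, which encodes an arginine- and serine-rich protein. The next, 3089 bp (chromosome 4, 33241374 to 33244462), lay wholly past the 3′ end of Pnrc1 (gene 108767), a nuclear receptor coregulator that also acts with the decapping machinery. A 3084 bp peak (chromosome 8, 84975908 to 84978991) spanned the whole of Junb (gene 16477), an AP-1 transcription factor gene 1840 bp long, and lay within the window of Prdx2, a peroxiredoxin gene. Kmt2e, of the MLL family of chromatin regulators, had a 3020 bp peak. These were the 4 peaks of at least 3000 bp.

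A 2774 bp peak lay between Clk1, a kinase of splicing factors, and its neighbour Bzw1, on no protein-coding gene. Further peaks of this group were at Eapp (2772 bp), at Gimap6 (2590 bp), a GTPase of the immunity-associated family, and at the divergent pair Mrps18b and Ppp1r10 (2584 bp). The last gene encodes PNUTS, a regulatory subunit of protein phosphatase 1. Hexim1, the inhibitor of P-TEFb, had 2570 bp over its 5′ end. Tsc22d2 (2532 bp), the kinase gene Wnk1 (2525 bp) and the exchange factor gene Arhgef18 (2505 bp) followed. Laptm5, a lysosomal protein of lymphoid cells, had 2426 bp over its 3′ end, and B2m, the light chain of MHC class I, had 2405 bp beyond its 3′ end. A pair of 2397 bp peaks lay at Irf7 and Phrf1 and at the histone genes H2ac13, H2bc13 and H3c10.

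The peaks mostly sat over 5′ ends. The strand of the nearest gene was known from RefSeq promoter windows for 312 of the 372 peaks (83.9%) and for 5165 of the narrower ones (82.1%). The 5′ end is throughout the outermost annotated boundary of the gene, and which start these cells use is not known. Of the 312 and 5165 peaks, the shares were as follows. Of these, 222 peaks of the set (71.2%, exact Clopper-Pearson 95% interval 65.8 to 76.1) covered the 5′ end alone, against 51.6% (50.2 to 52.9) of the narrower peaks. Another 11 (3.53%, 1.77 to 6.22) covered both ends of the nearest gene, against 0.348%, and 10 (3.21%, 1.55 to 5.82) the 3′ end alone, against 1.24%. Inside the gene and nearer its 5′ end lay 32 (10.3%, 7.12 to 14.2) against 27.9%, and outside it beyond the 5′ end 2 (0.641%) against 7.63%. Beyond the 3′ end lay 26 (8.33%, 5.52 to 12) against 7.38%, a share whose interval includes that of the narrower peaks. A wide interval covers a gene end more often by its width alone, so these shares are descriptions with no test. Intervals throughout cover counting error only, and peaks are not replicates.

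Read the other way, 7.69% of the 2885 gene-end peaks over a 5′ end alone were at least 1500 bp wide, and 6.39% (4.22 to 9.22) of the 407 peaks beyond a 3′ end were. Of the 1474 peaks inside a gene near its 5′ end, 2.17% (1.49 to 3.05) were that wide, and of the 396 beyond a 5′ end 0.505% (0.0612 to 1.81). Median widths over both kinds together were 875 bp over the 5′ end and 549 bp beyond the 3′ end. In 42 genes a peak of the set lay wholly inside and began within 3000 bp of the 5′ end. The median start was 705 bp from that end (1 to 2284 bp). The 42 include short genes such as Rps2, where the peak was nearer the 3′ end. Also among the 42 were Arhgef18 (185 to 2689 bp) and Irf7 (87 to 2483 bp). The cytokine signalling inhibitor gene Socs3 (199 to 2168 bp), named after the values were seen, was another.

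Where a peak covered the 5′ end of 1 gene and held no other protein-coding gene end, it usually reached further into the gene than upstream. Both lengths are measured from the outermost annotated boundary. Where the start in use lies further in, part of the downstream length is upstream of that start. The 176 such peaks of the set extended a median of 582.5 bp upstream (95% order-statistic interval 535 to 638 bp) and 1149 bp downstream (1059 to 1189 bp). The 2216 narrower peaks of the same kind extended 320.5 bp upstream and 469 bp downstream. The downstream part was the longer in 145 of 176 (82.4%, 75.9 to 87.7), against 1489 of 2216 (67.2%, 65.2 to 69.1). The share was 70.8% (67.6 to 73.9) when peaks from 1000 bp were counted as wide. Leaving out peaks that held another gene end took the set from 222 to 176 and the narrower peaks from 2663 to 2216. A peak that reached the end of an upstream neighbour was thus removed, and a wide peak meets such an end more easily. What this adds to the difference was not tested.

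Single genes ranged from nearly all downstream to nearly all upstream. Jun, an AP-1 gene, had 82 bp upstream and 2070 bp downstream. Ier5, an immediate-early gene, had 291 and 1894 bp, the translation initiation gene Eif1 had 298 and 1906 bp, and the antiproliferative gene Btg2 had 348 and 1709 bp. Cxcr4, a chemokine receptor gene, was more even, with 832 and 1328 bp. At Foxo3, a transcription factor gene of quiescence, the order was turned round, with 1658 bp upstream and 336 bp downstream, and at Eapp it was 2407 and 364 bp. Upstream length does not show the strand of the transcribing polymerase, which CUT&Tag does not give.

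**Figure D2:**
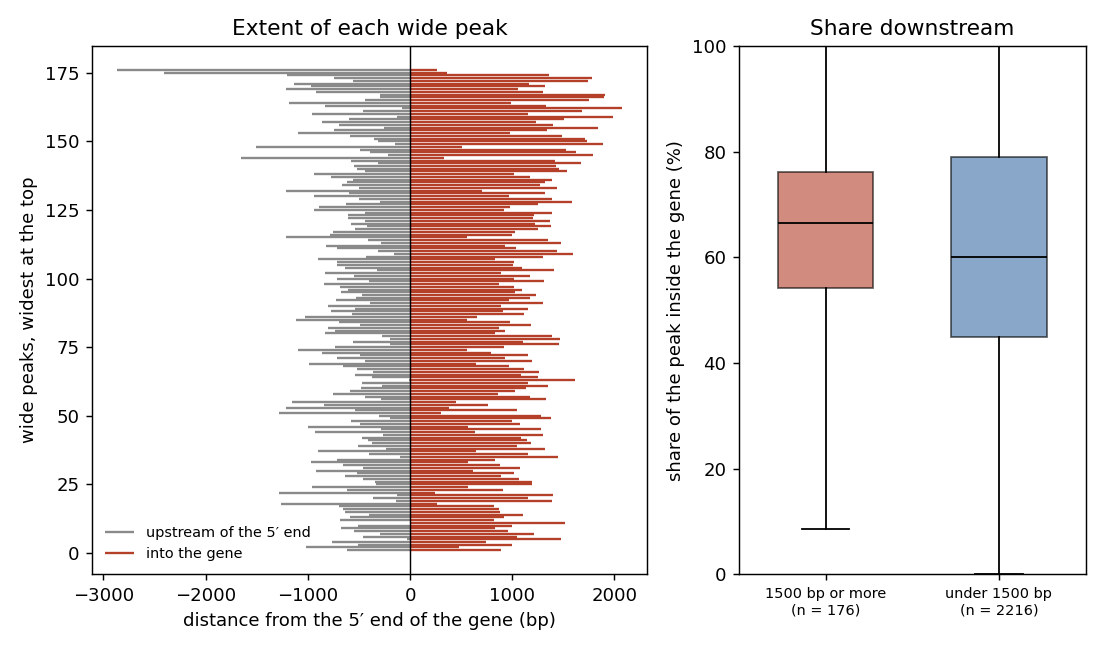
Left, the 176 peaks of at least 1500 bp over a single 5′ end, 1 line each with the widest at the top, drawn as distance from the 5′ end in bp (grey upstream, red into the gene). Right, share of each peak inside the gene in percent for these 176 and for 2216 narrower peaks (box, quartiles with the median line; whiskers, full range), with medians of 66.6% and 60.0%.

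A smaller group lay past the 3′ ends of genes. In all, 56 genes had a peak of the set that began past their 3′ end, and for 37 genes (35 peaks) that peak held no annotated 5′ end of a gene of known strand. Of these, 21 peaks of 23 genes overlapped no protein-coding gene at all. They began 49 to 1577 bp past the 3′ end (median 848 bp) and ended 1737 to 4049 bp past it (median 2504 bp). Their median width was 1675 bp. Over the whole set 27 peaks (7.26%, 4.84 to 10.4) overlapped no protein-coding gene, against 803 (12.8%, 12 to 13.6) of the narrower gene-end peaks.

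The genes of these 21 peaks, picked out after their values were seen, included splicing and RNA processing factors. The peak of Pnrc1 lay 961 to 4049 bp past the 3′ end. The SR protein gene Srsf3 had its peak at 938 to 2981 bp, and the related Tra2a at 964 to 2910 bp. Pcf11, a factor of transcript cleavage and termination, had one at 222 to 2211 bp, and the RNA helicase gene Dhx9 at 649 to 2524 bp. T cell genes were present too. Vav1, a signalling exchange factor, had a peak at 609 to 2332 bp, the interleukin 4 receptor gene Il4ra at 497 to 2504 bp, and Ikzf1, which encodes Ikaros, at 1448 to 3030 bp. Of the 23 genes, 11 were in one of the 19 gene lists described below, against 102 of the 479 genes with a peak of the set.

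In 13 genes 2 peaks of the set were found, also picked out after their values were seen. They were B2m, Eif4a1, Ptbp1, Hnrnph1, Pcf11, Hnrnpa1, Eif4g2, Dhx9, Arid5a, Hnrnpa2b1, Etf1, Dusp10 and Cdkn1b. Hnrnpa1, Hnrnpa2b1, Hnrnph1 and Ptbp1 encode RNA-binding proteins of splicing, and Eif4a1 and Eif4g2 encode translation factors. B2m, 5396 bp long, had a 1883 bp peak over its 5′ end, from 297 bp before to 1585 bp after the start, and the 2405 bp peak from 1309 to 3713 bp past its 3′ end. Cdkn1b, a cell cycle inhibitor gene of 5125 bp, had 1550 bp over its 5′ end and 1509 bp from 1577 to 3085 bp past its 3′ end. Pcf11, 26623 bp long, had 1765 and 1990 bp, and Ptbp1, 10004 bp long, had 1803 and 2003 bp, in the order 5′ then 3′. Strand was known for 11 of the 13. In Arid5a, which encodes an RNA-binding protein, both peaks lay within the gene, and in Hnrnpa2b1 the second covered the 3′ end. The second peaks of B2m, Ptbp1, Hnrnpa1 and Eif4a1 overlapped another protein-coding gene, and that of Eif4a1 held the 5′ end of Cd68. Those of Cdkn1b, Dhx9, Dusp10, Hnrnph1 and Pcf11 overlapped none.

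**Figure D3:**
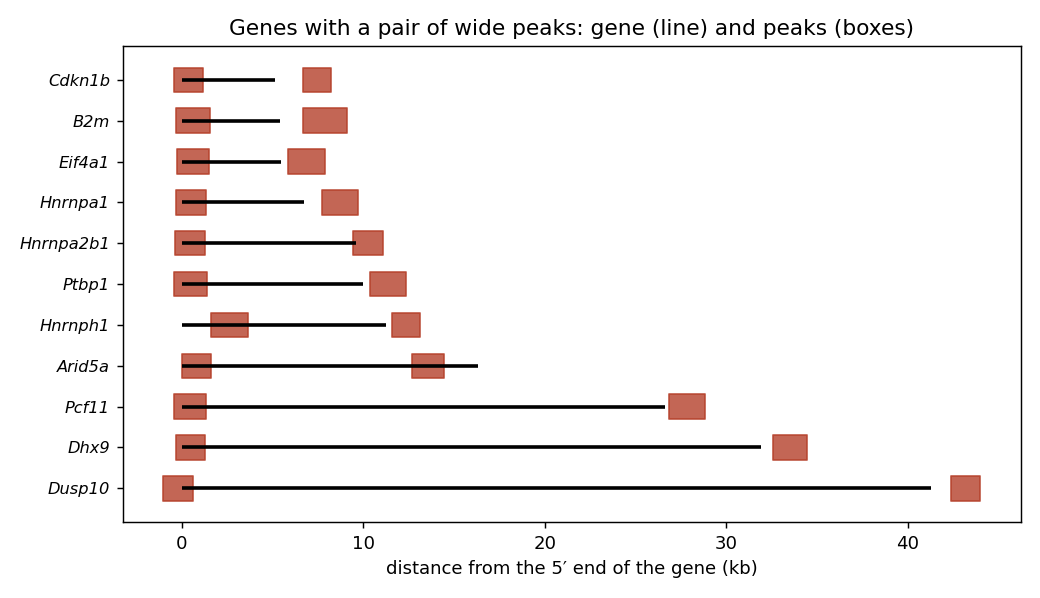
The 11 genes of known strand with 2 peaks of at least 1500 bp, each a row with the gene as a black line and its peaks as red boxes, against distance from the 5′ end in kb. In 9 of the 11 the second box lies wholly past the end of the line. In Hnrnpa2b1 it crosses that end and in Arid5a it lies within the gene. At B2m, Ptbp1, Hnrnpa1 and Eif4a1 the second box overlaps another protein-coding gene, which is not drawn.

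Short genes could lie wholly under a peak. This was so for 14 peaks (3.76%, 2.07 to 6.23) against 19 of the narrower peaks (0.302%). They covered 18 genes, which were 15 histone genes, Junb, Rpl41, a ribosomal protein gene of 1059 bp, and Gpx1, the glutathione peroxidase gene of 1263 bp under a 2371 bp peak. Genes of at most 3000 bp were nearest to 35 peaks (9.41%, 6.64 to 12.8) against 347 (5.52%, 4.97 to 6.11). The median length of the nearest gene was 20861 bp (18000 to 24637 bp), against 22576 bp (21955 to 23583 bp). For peaks of at least 2000 bp it was 15772 bp (6662 to 25560 bp).

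Most peaks were near a single gene. Ends of 1, 2 and 3 genes lay in the window for 260, 104 and 8 peaks. Thus 112 (30.1%, 25.5 to 35.0) had 2 or more, against 26.4% (25.3 to 27.5) of the narrower peaks. The nearest other RNA polymerase II peak was a median of 14270.5 bp away (12230 to 17199 bp), against 23337 bp (22332 to 24493 bp). Within 3000 bp, however, another was found for 10.8% (7.79 to 14.4) against 15.1% (14.2 to 16). Long noncoding RNA genes overlapped 48 peaks (12.9%, 9.67 to 16.7), against 10.7% of the narrower. By chromosome, the share of gene-end peaks in the set was between 3.20% (7 of 219, chromosome 14) and 8.13% (33 of 406, chromosome 1), with overlapping intervals (1.29 to 6.47 and 5.66 to 11.2).

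Together 479 protein-coding genes had a peak of the set within 3000 bp of an end, which was 6.66% of the 7196 genes with any gene-end peak and 2.21% of 21631. Such a peak can lie over a neighbour. Of the 479 genes, 102 were in at least 1 of 19 gene lists and 377 in none. The lists were drawn up with earlier results of these data known, so their shares are read only beside the 6.66%, and no test was made.

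Immediate-early and AP-1 genes, many of which are induced within minutes of a stimulus, had wide peaks at 15 of the 36 members with a gene-end peak (41.7%, 25.5 to 59.2; 42 genes in the list). Junb (3084 bp), Ier5 (2186 bp), Jun (2153 bp), Klf10 (2060 bp) and Btg2 (2058 bp) had the widest. The median over the 36 of each gene's widest peak was 1216 bp, against 772.5 bp over all genes with one. Fos and Egr1, named after their values were seen, were outside the set with 1239 and 910 bp. At 2000 bp or more the list had 5 of 36 (13.9%), where all genes had 1.26%.

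Splicing factor genes had wide peaks at 14 of 35 (40.0%, 23.9 to 57.9; 36 in the list). They included Rsrp1 (3131 bp) and Clk1 (2774 bp), both sharing the peak with a neighbour, Srsf3 (2044 bp) and Hnrnph1 (1999 bp). The Clk1 peak lay outside the Clk1 gene and on no protein-coding gene. Son, a nuclear speckle protein gene, had 2035 bp and shared that peak with Gart, whose end was nearer. With the gene-end window cut to 1000 bp the list had 8 genes in place of 14. The splicing activator gene Tra2b had a 1528 bp peak of the set. A 3468 bp peak (chromosome 16, 22239228 to 22242695) lay past the 3′ end of Tra2b. Its midpoint was 3590.5 bp from that end, the nearest gene end, and it fell outside the rule. A list of heterogeneous nuclear ribonucleoproteins, RNA-binding proteins of the nucleus, was added after the values were seen and had 7 of 19 (36.8%), of which Hnrnph1 and Hnrnpa1 (1952 bp) were the widest. The 1952 bp peak lay past the 3′ end of Hnrnpa1, on another protein-coding gene.

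Genes of MHC class I presentation had wide peaks at 6 of 14 (42.9%, 17.7 to 71.1; 17 in the list). B2m had 2405 bp, and the class I heavy chain genes H2-D1, H2-Q4 and H2-T22 had 1931, 1791 and 1541 bp. The immunoproteasome subunit gene Psmb9 and the peptide transporter gene Tap1 shared the 1502 bp peak at the width limit. The H2 class I genes are related in sequence, and the placing of reads among them is uncertain. The end nearest to the H2-T22 peak was that of a clone-named gene.

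Genes of quiescence and growth restraint had wide peaks at 7 of 20 (35.0%, 15.4 to 59.2; 23 in the list). Btg2 and Btg1 (2058 and 1978 bp) encode antiproliferative proteins, Foxo3 (1995 bp) a forkhead factor, Tsc22d3 (1924 bp) the glucocorticoid-induced leucine zipper and Sesn3 (1917 bp) a sestrin. Btg1 and Btg2 are also in the immediate-early list. At 2000 bp or more 1 of the 20 was left.

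Histone genes had wide peaks at 22 of 70 (31.4%, 20.9 to 43.6; 98 in the list), but the 22 genes shared 11 peaks. The cluster peak over H2ac13, H2bc13 and H3c10 (chromosome 13, 21715738 to 21718134) was the widest, followed by 2200 bp over H2ac20, H2ac21 and H2bc21. Histone genes lie in clusters and resemble each other, so the members under a peak cannot be counted as independent and read assignment is uncertain. At 2000 bp or more the list had 11 of 70 (15.7%).

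Translation factor genes had wide peaks at 9 of 31 (29.0%, 14.2 to 48.0), with 34 in the list. The widest were at Eif1 (2205 bp), Eif4a1 (2016 bp), Eif4g2 (1887 bp), Eif5 (1802 bp) and Eif5b (1741 bp, nearer to Txndc9). The 2016 bp peak lay past the 3′ end of Eif4a1 and over the 5′ end of Cd68. Ribosomal protein genes had 8 of 78 (10.3%, 4.53 to 19.2; 84 in the list), an interval that includes 6.66%. Rpl24 (1986 bp, on neighbouring Zbtb11), Rpl41 (1928 bp), Rpl3 (1826 bp), Rps2 (1759 bp) and Rpl12 (1745 bp) were the widest, and none reached 2000 bp. The Rpl3 peak lay outside the Rpl3 gene. In the window of 1000 bp ribosomal protein genes had 3 with a wide peak in place of 8. Both groups serve protein synthesis, and their shares are given with no test of the difference.

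In both lists of T cell genes the interval included 6.66%. T cell receptor signalling genes had 4 of 30 (13.3%, 3.76 to 30.7; 35 in the list). Among these were the coreceptor gene Cd4 (2180 bp), the phosphatase gene Ptpn22 (1916 bp, past its 3′ end and over the 5′ end of Rsbn1) and Vav1 (1724 bp, past its 3′ end). With the gene-end window cut to 1000 bp the list had 1 gene in place of 4. Naive T cell identity genes had 4 of 23 (17.4%, 4.95 to 38.8; 32 in the list), which were Cxcr4 (2161 bp), Runx1 (1626 bp), Ikzf1 (1583 bp, past its 3′ end) and Lef1 (1557 bp). The last 3 encode transcription factors of lymphocytes. In the 1000 bp window this list had 2 genes. When 1000 bp or more counted as wide, T cell receptor genes had 9 of 30, against 30.1% for all genes, and naive identity genes 13 of 23 (56.5%).

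Chaperone genes had 5 of 27 (18.5%, 6.30 to 38.1; 28 in the list). Hsp90aa1 (2193 bp), Hsp90b1 (1946 bp) and Hsp90ab1 (1746 bp) encode HSP90 proteins, and the last peak lay inside the neighbouring Slc35b2. The Hsp90aa1 peak lay outside the Hsp90aa1 gene. Hspa5 (1739 bp, past its 3′ end) and Calr (1523 bp) encode chaperones of the endoplasmic reticulum. Actin cytoskeleton genes had 4 of 23 (17.4%, 4.95 to 38.8; 26 in the list), with Rhoa (2371 bp, over the whole of neighbouring Gpx1), Actr3 (1693 bp), Tmsb10 (1689 bp) and Tmsb4x (1588 bp). Ubiquitin genes had 4 of 24 (16.7%, 4.74 to 37.4), with Ubb (1701 bp), Ube2d3 (1680 bp), Ube2s (1519 bp) and Ube2b (1515 bp). The Tmsb10 and Ube2b peaks lay past the 3′ ends of those genes. Genes of messenger RNA decay had 1 of 17 (5.88%, 0.149 to 28.7; 19 in the list), which was Pnrc1. In the window of 1000 bp the chaperone, actin and ubiquitin lists had 2 genes each and the decay list 0. The interval printed for each of these 4 lists included 6.66%. Over all lists together the 1000 bp window left 74 genes in place of 102, and the set had 297 peaks in place of 372. The immediate-early list then had 14 genes in place of 15, histones 21 in place of 22, translation factors 8 in place of 9 and quiescence 6 in place of 7. MHC class I presentation kept its 6. The share over all genes in that window is not given here.

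**Figure D4:**
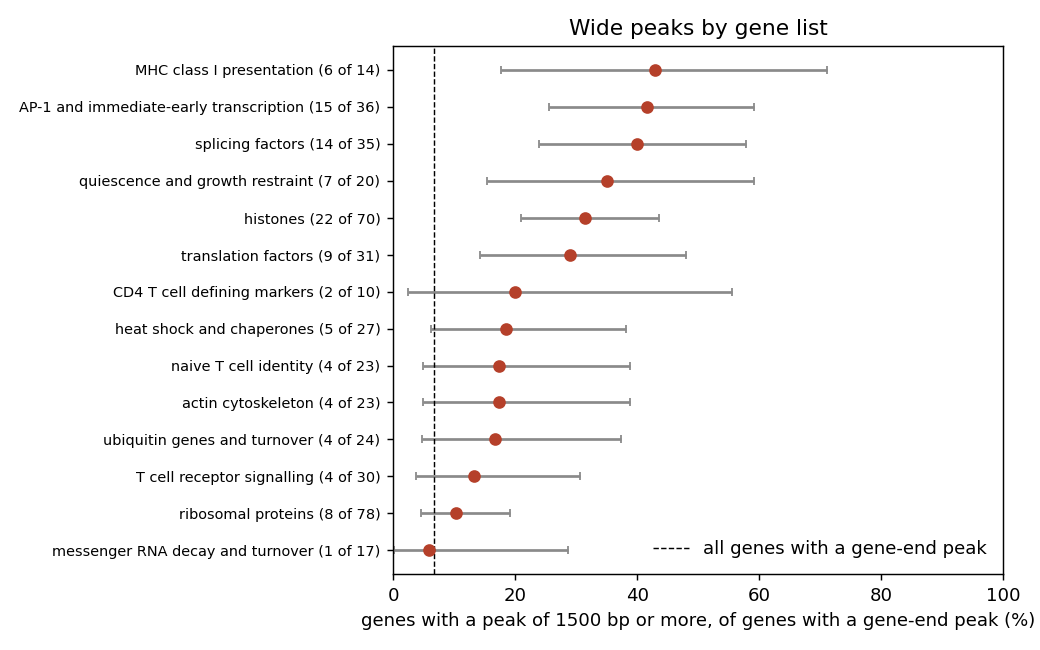
Share of genes with a peak of at least 1500 bp, in percent of the genes with any gene-end peak, for the 14 gene lists with at least 5 such genes (points; bars are exact 95% intervals; counts in the labels). The dashed line is 6.66%, the share over all genes, and the intervals of the 6 lists from MHC class I presentation down to translation factors lie wholly above it. Among the 6 is the histone list, whose 22 genes share 11 peaks, so its interval treats linked genes as independent.

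Further lists were added after the values were seen and are descriptions only. Transcription elongation and termination genes had wide peaks at 9 of 39 (23.1%), with Hexim1 (2570 bp), Polr2a (2075 bp), which encodes the largest subunit of RNA polymerase II itself, Pcf11 (1990 bp), Cpsf3 (1852 bp) and Ints6l (1698 bp) the widest. This Pcf11 peak lay past the 3′ end of the gene, and the peak at Cpsf3 was nearer to Itgb1bp1. Interferon regulatory, STAT and SOCS genes had 5 of 20 (25%), among them Irf7 (2397 bp), Irf1 (2301 bp), Socs3 (1970 bp) and Stat6 (1554 bp). The GIMAP family, GTPases of lymphocytes, had 3 of 8, with 2590 bp at Gimap6 and 1896 bp shared by Gimap1 and Gimap5.

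The cell type named in the labels was set against marker lists. Of 12 defining CD4 T cell markers 10 had a gene-end peak, and Cd4 and Lef1 had one of the set, though 0 of the 12 did with the window cut to 1000 bp. Of markers of other cells, 1 of 14 B cell, 2 of 20 myeloid, 1 of 15 CD8 T and NK cell and 1 of 10 erythroid genes had a gene-end peak. The one of these in the set, at the myeloid gene Cd68 (2016 bp), covered the 5′ end of Cd68, with 395 bp upstream and 1620 bp inside the gene. It also lay past the 3′ end of Eif4a1, and an end of Mpdu1 was in its window. Olfactory receptor genes, which are silent in T cells, had 1 of 1106 with a gene-end peak and 0 in the set. The part that other cells have in any peak was not tested.

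Promoters of genes with a peak of the set had GC contents near those of genes with narrower peaks. A gene was counted whichever of its ends lay near the peak, so its promoter need not lie under the peak. In 56 genes a peak of the set began past the 3′ end. A RefSeq window of 300 bases, from 250 before to 50 after the start, was available for 408 of the 479 genes, for 5540 of the 6717 genes with narrower gene-end peaks only, and for 11326 of the 14435 with none. Median GC content was 62.0% (61.3 to 63.0), against 61.3% (61.0 to 61.7) with narrower peaks and 53.0% (52.7 to 53.3) with none. The median observed over expected CpG ratio was 0.834 (0.812 to 0.853), against 0.805 (0.799 to 0.812) and 0.362 (0.351 to 0.372).

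The TATA box letters TATAAA were in 45 of the 408 windows (11.0%, 8.16 to 14.5), against 6.64% (6 to 7.33) with narrower peaks, 16.8% (16.1 to 17.5) with none and 13.4% of all 17274 windows. Junb and H3c10 carry them in the windows printed above. Without the histone list the share was 9.46% (6.75 to 12.8), which overlaps the interval of the narrower peaks. Histone genes were left out of the wide group only, and the narrower group kept them. At peaks of at least 2000 bp, with histone genes kept, the TATAAA share was 23.2% (14.6 to 33.8). The CCAAT letters were in 48.0% (43.1 to 53.0), against 41.1% (39.8 to 42.4), 38.5% (37.6 to 39.4) and 39.6% of all windows. Without histone genes in the wide group only, the CCAAT share there was 45.8% (40.8 to 50.9), again overlapping. With only the nearest gene of each peak of the set, it was 46.2% (40.5 to 52.0), which also overlaps the interval printed for narrower peaks. The TATAAA share was then 11.1% (7.84 to 15.2) and did not overlap.

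The ETS-type letters CCGGAAG, present as a pair in the Syf2 window, were less frequent than with narrower peaks and more frequent than with none, in 15.4% (12.1 to 19.3) against 21.5% (20.4 to 22.6), 7.33% (6.85 to 7.82) and 12.1% of all windows. At 1000 bp or more the share was 20.9% (19.1 to 22.9), and with only the nearest gene of each peak of the set 15.7% (11.8 to 20.3). The GC box letters GGGCGG were in 69.1% (64.4 to 73.6), against 66.7%, 36.4% and 46.9% of all. CACGTG was in 13.2% (10.1 to 16.9), against 10.7%, 6.50% and 8.01%. The shares of TGACGTCA (4.41%, 2.64 to 6.88), TGANTCA (4.17%, 2.45 to 6.59) and the Kaiso-type palindrome (1.72%, 0.693 to 3.50) had intervals that included those of the narrower peaks (3.83%, 3.79% and 1.46%). The 8 motifs were counted apart, and the CRE, AP-1, E box and Kaiso-type motifs read the same on both strands. No test was made between the groups.

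**Figure D5:**
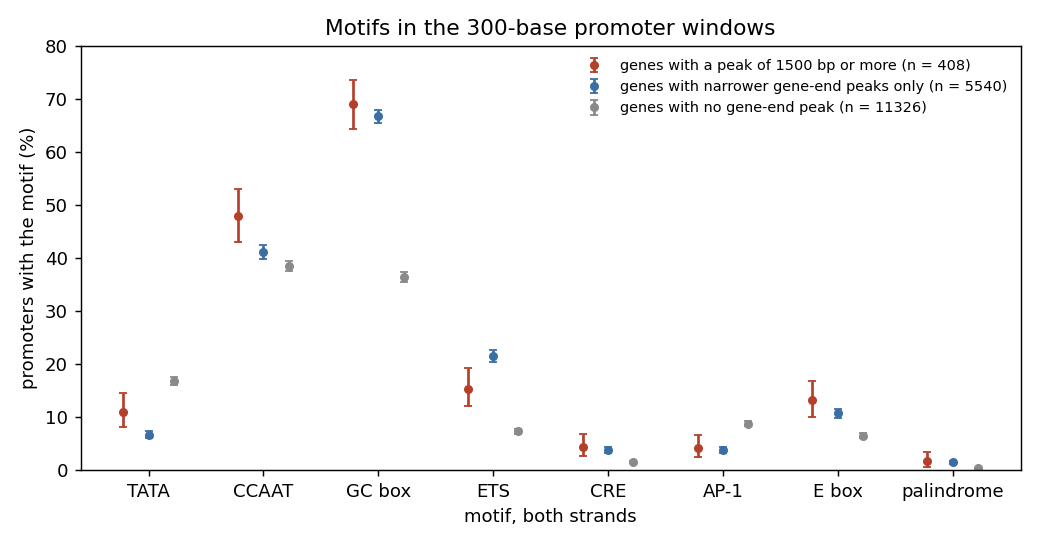
Share of 300-base promoter windows, in percent, that hold each of 8 motifs on either strand, with exact 95% intervals. Red is 408 genes with a peak of at least 1500 bp, blue 5540 genes with narrower gene-end peaks only and grey 11326 genes with none. The peak can be near either end of the gene, so a promoter counted here need not lie under it. Red points lie below blue for the ETS letters and above it for the other 7. Their intervals do not overlap for TATA, CCAAT and ETS. With histone genes left out of the red group only, the intervals of TATA and CCAAT overlap. With only the nearest gene of each peak in the red group, the red CCAAT interval overlaps the blue one drawn.

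Few peaks of the set met a peak of another list. With H3K9me3, a mark of heterochromatin, 4 of 372 shared at least 1 bp (1.08%, 0.294 to 2.73), against 17 of 6289 (0.270%, 0.158 to 0.432). They lay at a chromosome 9 locus with clone-named genes (2191 bp, 1832 bp shared), at Ppp2r3d, a phosphatase subunit gene (1837 bp, 485 bp shared), at Asmt, of melatonin synthesis (1672 bp, 637 bp shared), and at Crlf2, a cytokine receptor gene (1647 bp, 9 bp shared). The first and second lie near each other on chromosome 9, and the placing of reads there was not tested.

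R-loop peaks were met by 4 (1.08%, 0.294 to 2.73), against 21 (0.334%, 0.207 to 0.510). At Cd4 the whole 2180 bp peak (chromosome 6, 124884917 to 124887096) lay within an R-loop peak of 8535 bp. At Cited2, a transcriptional coregulator gene, a 343 bp R-loop peak lay within 2297 bp. At Lsm14a, of messenger RNA storage and decay, 478 bp were shared, and at Map3k12 and Tarbp2 94 bp. Samples treated with RNase H name the same list, so sensitivity to it is not known. When the central 500 bp of each peak were used, 2 (0.538%) met an R-loop peak, against 18 (0.286%).

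DDX55 peaks were met by 2 (0.538%, 0.0652 to 1.93), against 27 (0.429%, 0.283 to 0.624). One, of 288 bp, lay within the 1646 bp peak over the 5′ end of Hnrnpa1 (chromosome 15, 103239641 to 103241286), inside that gene; an end of Cbx5, which encodes heterochromatin protein HP1 alpha, was also in the window. The other, of 308 bp, lay within the 1530 bp peak at Nmt2, an N-myristoyltransferase gene. Samples of DDX55 KO mice name the same DDX55 list, so whether these peaks depend on DDX55 is not known. With 2 and 4 peaks, the intervals of all 3 shares are too broad to place the set above or below the narrower peaks for DDX55, and for H3K9me3 and R-loops they overlap those of the narrower peaks.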

How the data were processed

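For each target the authors deposited a merged list of peak positions, start and end in bp, another unit than counts or signal. It has no score, height or value per sample. The submitters' processing notes name mm10 as build and, in no stated role, the tools MACS3 (3.0.0b1), ChIPseeker (1.30.3), Bowtie2 (2.5.0), fastp (0.12.4) and SAMtools (1.15.1). Peak thresholds, the merging of samples and any use of spike-in DNA are not given in the sources used here. Merging peaks of several samples can widen an interval, and the lists do not show which peaks it touched. The depth per sample is unknown, and the labels do not say whether samples came from separate mice.

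Genes and promoter windows came from RefSeq tables of GRCm38.p6, whose chromosome coordinates equal those of mm10. A peak was linked to a protein-coding gene (21631 on chromosomes 1 to 19 and X) when its midpoint lay within 3000 bp of a gene end, and genes had a strand where a promoter entry existed (17274). Windows of chromosome 18 were not used here, so its 8 peaks of the set, of 169 at gene ends, are in no result by strand or motif. Overlap was at least 1 bp. Shares have exact Clopper-Pearson 95% intervals and medians order-statistic intervals, computed with Python 3.11.15, numpy 2.4.6, pandas 2.3.3 and scipy 1.17.1. Overlaps were checked with bedtools 2.31.1 and tested on simulated data. Figures used matplotlib 3.10.9. No test was made, since the values hold no samples.

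The members and gene lists were chosen with earlier results of these data known. Named were genes at the 15 widest peaks and at 1 tied with the last, up to 5 genes a list by width, genes whose peak met another list, genes at the width limit and Ddx55. Some genes counted in the lists are not reported here by name. Clone symbols were counted and not named, and any other gene was named after its values were seen. Promoters were printed from the genes of the 8 widest peaks that hold a start. Alternatives were widths of 1000 and 2000 bp, windows of 1000 and 5000 bp, any base in place of the midpoint, autosomes only, no clone symbols, no peaks on H3K9me3, an overlap of 50%, the central 500 bp and, added later, motif shares without histone genes and for the nearest gene only.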

Additional observations from a re-analysis of the deposited data

How the results depend on the processing

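Width and window were the choices that moved results. With 1000 bp or more as wide, the set had 1719 peaks, 245 listed genes had one, 0.233% met H3K9me3, 70.8% of those over a single 5′ end were longer downstream and 20.9% of promoters held CCGGAAG. With 2000 bp or more, it had 67 peaks and 29 listed genes, 4.48% met an R-loop peak and 0% a DDX55 peak, 11.9% lay inside the gene, the median gene length was 15772 bp, and TATAAA and CCAAT were in 23.2% and 56.1% of promoters. With a window of 1000 bp, 22.9% had 2 or more genes, 95.3% covered a gene end (76.9% in the main definition, against 51.7% of the narrower peaks) and 3.70% lay inside the gene (16.4%). Fewer or more peaks enter under these settings by construction, and no other cause was tested. A share or median was taken as moved when it left the 95% interval of its main value, and a count when it changed by over 1.5 times. By this rule 16 summary values moved and 107 stayed within it, and 36 and 108 of the counts per gene list. Rare overlaps have broad intervals, so a share could change and stay within: the H3K9me3 share was 0.337% with the 1000 bp window, against 1.08%. No paired analysis was possible because the merged list holds no value per sample, and for the same reason no replicate could be left out. Depth limits what can be said of places with no peak, and its size is unknown.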
